A study of Mus musculus with 2 samples.

Results

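The clustered histone genes are the replication-dependent histone genes of the mouse, which lie in the Hist1 cluster on chromosome 13, the Hist2 cluster on chromosome 3, the Hist3 cluster on chromosome 11 and at the lone Hist4h4 gene on chromosome 6. Members were taken by symbol (Hist1h, Hist2h, Hist3h or Hist4 at the start of the name) from the GENCODE M1 annotation of mm9, the mouse genome build of the deposited peaks. The rule found 70 of 37310 annotated genes, of which 67 are annotated as protein-coding and 3 as pseudogenes (Hist3h2bb-ps, Hist1h2aj and Hist2h3c2). By histone class they were 6 H1, 20 H2A, 19 H2B, 12 H3 and 13 H4 genes.

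Open chromatin was mapped with ATAC-seq (a transposase cuts and tags DNA that is not tightly packed) in enteroids, which are self-organising cultures grown from the epithelium of the mouse ileum. There was 1 control library, from mice with floxed Taf4 alleles and no Cre (Taf4 lox/lox, labelled WT), and 1 Taf4-inactivated library, from mice carrying the same alleles with VilCreERT2 (labelled KO), a tamoxifen-dependent Cre that the Villin promoter drives in intestinal epithelium. Both cultures came from 4-month-old mice of a C57Bl6/129sv background and received 1 µM 4-hydroxytamoxifen for 3 days, so that floxed alleles and drug are common to both and Cre is not. With 1 library of each genotype there is no replicate error, no test was possible, and a difference between the peak lists cannot be told apart from a difference between 2 cultures.

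Replication-dependent histone genes supply the core histones H2A, H2B, H3 and H4 and the linker histone H1 that package newly made DNA in S phase. Most have no introns, and their transcripts end in a conserved stem-loop, bound by Slbp, in place of a poly(A) tail. In the small intestine the dividing crypt cells are the main users of these genes. TAF4 is a subunit of TFIID, the general factor that binds core promoters, including those with a TATA box.

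The control list held 90445 peaks and the Taf4-inactivated list 71282. The background level implied by the fold and p columns was 12.1 in control and 7.35 in Taf4-inactivated enteroids, a ratio of 1.65, so the control library appeared to be the deeper, and levels are compared below by rank within each list. Taf4a, the targeted gene, had peaks at its start in each list (percentile 74.7 in control, 58.7 in Taf4-inactivated), which does not check the deletion, since a start site peak does not read the floxed exons. Of 10 intestinal epithelial markers, 9 had start site peaks in each list and Krt20 in the Taf4-inactivated list only, while blood markers had peaks in both lists for 1 of 5 (Itgam), endothelial markers for 1 of 3 (Kdr) and mesenchymal markers for 4 of 5. Cd68 (blood) and Pecam1 (endothelium) had peaks in control only. The ranks of most non-epithelial markers with peaks in both lists were lower in the Taf4-inactivated list. The differences were -29.9 points at Itgam and -57.1 at Kdr. Over the 4 mesenchymal markers the median was -26.5, and Col1a1 among them rose by 7.36. Over the 9 epithelial markers the median was -9.07, with 5 lower and 4 higher, from -32.3 at Krt18 to 3.64 at Olfm4. The signal at markers of other cells and of epithelium thus differed between the lists. The part of other cells in the results was not tested.

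The sequence that marks these genes lies at the end of the transcript. A stem-loop written as GGCNCT, the loop TTTN, then AGNGCC was searched on the sense strand in each gene and the 300 bases after it. It was found in 62 of the 70 members in 5 forms, shown here from the mm9 genome with the loop in capitals and with the member that stands for each form.

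Hist3h2ba: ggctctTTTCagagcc
Hist1h2bl: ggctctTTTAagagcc
Hist1h2bn: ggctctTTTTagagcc
Hist1h4k: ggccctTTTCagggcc
Hist1h4i: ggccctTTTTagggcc

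The Hist3h2ba form was held by 41 members, the Hist1h2bl form by 9, the Hist1h4k form by 8, and the remaining forms by 2 each. All 10 H4 genes with a match carried C at the fourth base of the stem and all 52 members of the other classes carried T, so the stem separated H4 from the rest. The 8 members with no match were Hist1h2aj, Hist1h4j, Hist1h2an, Hist1h3g, Hist1h4b, Hist1h4a, Hist1h2al and Hist2h2be. In a window of fixed length, from 200 bases inside the annotated gene end to 300 bases beyond it, 46 members (65.7%) had a match against 0 of 22313 other coding genes.

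Near-identical proteins came from distinct DNA. The 13 H4 genes encoded 1 protein of 103 residues through 12 distinct coding sequences. The 11 coding H3 genes encoded 3 proteins through 11 coding sequences, the 19 coding H2A genes 10 proteins through 17, the 18 coding H2B genes 12 proteins through 17, and the 6 H1 genes 6 proteins through 6. Among the H3 proteins, that of Hist2h3c1 has 181 residues in this annotation and no other gene shares it. The commonest H3 protein, of 6 genes, has 136. H1 was the class in which every gene had a protein of its own.

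Promoters were described by motifs in the 250 bases before each annotated start, searched on both strands: the CCAAT box (CCAAT, bound by NF-Y), the TATA box (TATAAA), the octamer (ATTTGCAT, bound by Pou2f1) and the H1 box (AAACACA). None of these motifs contains another, and H2A and H2B genes that lie head to head share parts of their windows, so their counts partly rest on the same bases. A match was counted at any place in the window, so a TATA box here is a run of letters and not a measured core promoter element. At least 1 CCAAT box stood before 58 of 70 members (82.9%) against 35.0% of all coding genes, and at least 2 before 48 members (68.6%) against 10.5%. A TATA box stood before 33 members (47.1%) against 12.3% of coding genes.

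The motifs differed by class. All 19 H2B genes and 19 of 20 H2A genes held a CCAAT box, against 4 of 13 H4 genes (30.8%), close to the share of all coding genes. The octamer was found in 9 H2B and 7 H2A genes and in no H1, H3 or H4 gene, against 1.62% of coding genes. The H1 box was found in 5 of 6 H1 genes (83.3%), in 1 H2A, 2 H2B and 1 H3 gene, and in 5.67% of coding genes. The median G+C content of the windows was 44.6% for members and 54% for coding genes.

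**Figure D1:**
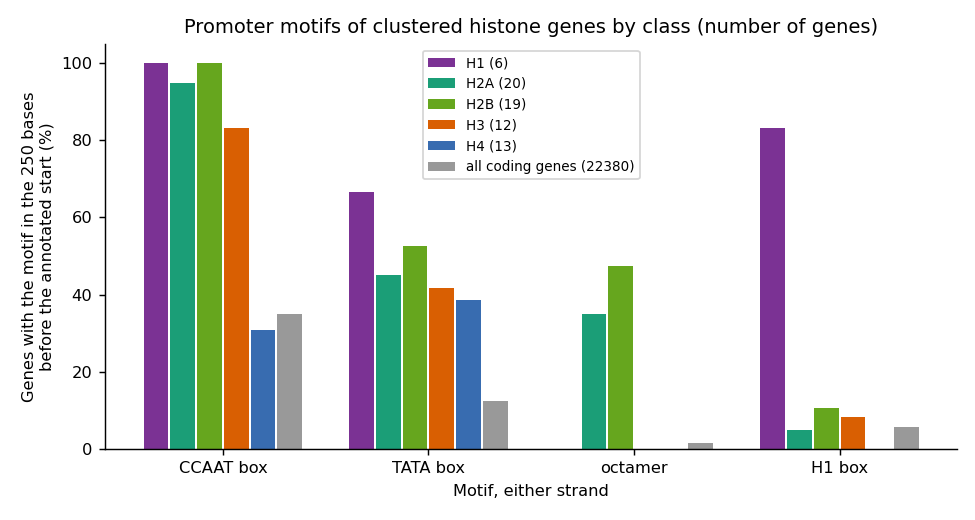
Share of genes in each histone class (coloured bars) and of all coding genes (grey bars) with a motif in the 250 bases before the annotated start, in percent of genes, either strand. The octamer is limited to H2A and H2B genes among the members, and the H1 box stands in 83.3% of H1 genes.

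A divergent H2A and H2B promoter and a divergent promoter of the same build without a peak are shown next, both on the plus strand, with every CCAAT box, TATA box, octamer and H1 box on either strand in capitals. Hist1h2ac-Hist1h2bc is the whole interval between the annotated starts (chr13:23775818-23776067), which lay inside a single peak in each list. Hist1h2ba-Hist1h2aa is the interval between the annotated starts of the testis-type H2B and H2A genes without the 50 bases nearest to each start (chr13:24026076-24026280), where neither list had a peak.

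Hist1h2ac-Hist1h2bc: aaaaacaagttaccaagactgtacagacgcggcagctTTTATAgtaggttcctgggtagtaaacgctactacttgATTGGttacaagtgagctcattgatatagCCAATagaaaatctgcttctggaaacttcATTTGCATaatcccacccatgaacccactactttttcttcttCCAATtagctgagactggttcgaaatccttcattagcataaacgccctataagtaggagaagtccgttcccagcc
Hist1h2ba-Hist1h2aa: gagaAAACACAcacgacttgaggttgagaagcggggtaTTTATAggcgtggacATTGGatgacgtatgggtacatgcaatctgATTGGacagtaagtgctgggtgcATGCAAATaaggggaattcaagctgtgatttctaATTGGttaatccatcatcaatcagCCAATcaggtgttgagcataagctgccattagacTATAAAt

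Both intervals held CCAAT boxes, a TATA box and an octamer. They were chosen after the peaks had been seen, and a link between motifs and peaks was not tested.

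The H1 genes are shown by their H1 box, in capitals, with 20 bases on each side in the direction of the gene. The places are chr13:21872585-21872631 for Hist1h1b, chr13:23646759-23646805 for Hist1h1d, chr13:23714516-23714562 for Hist1h1e, chr13:23830544-23830590 for Hist1h1c and chr13:23787546-23787592 for Hist1h1t.

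Hist1h1b: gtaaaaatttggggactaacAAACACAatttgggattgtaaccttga
Hist1h1d: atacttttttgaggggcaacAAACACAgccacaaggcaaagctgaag
Hist1h1e: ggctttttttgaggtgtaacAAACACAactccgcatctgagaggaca
Hist1h1c: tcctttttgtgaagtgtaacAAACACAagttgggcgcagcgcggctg
Hist1h1t: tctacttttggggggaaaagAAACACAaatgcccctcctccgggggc

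The box began between 112 and 171 bases before the annotated start, always on the strand of the gene. Hist1h1t, the testis linker histone and the only H1 gene without a start site peak, held it at 114 bases. Hist1h1a had no exact match and had the weakest peaks of any member.

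A start site peak is a peak within 1 kb of any annotated start of a gene. In control enteroids 54 of 70 members (77.1%) had at least 1, against 68.4% of the 22380 coding genes, and in Taf4-inactivated enteroids 57 members (81.4%) had at least 1, against 65.5%. The same 54 members carried peaks in both lists (77.1%, all coding genes 62.7%). No member had a peak in control only (coding genes 5.70%), 3 had a peak in the Taf4-inactivated list only (4.29%, coding genes 2.90%), and 13 had no peak in either list (18.6%, coding genes 28.7%). With peaks of −log10 q of at least 5 only, 24 members (34.3%) counted as Taf4-inactivated only, against 12.4% of coding genes. Still 0 counted as control only, against 1.41%. For genes with peaks in both lists, the median −log10 q in control was 4.87 for members and 5.61 for coding genes. In the Taf4-inactivated list it was 10.3 and 9.27. The cut of 5 thus lay above the control median of members and below that of coding genes. Members that share a peak were each counted.

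The level of a peak is the fold enrichment that the peak caller gave it over its local background, and its percentile is its rank among all peaks of its own list. Among members with peaks, the median fold of the best start site peak was 2.56 in control and 3.69 in Taf4-inactivated enteroids, against 2.44 and 3.20 for coding genes. The median percentile was 89.7 and 90.1 for members and 86.5 and 81.5 for coding genes. For the 54 members with peaks in both lists the fold was higher in the Taf4-inactivated list in 52 (96.3%) and for coding genes in 96.0%, and the median ratio of the folds, Taf4-inactivated over control, was 1.42 for members and 1.27 for coding genes.

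The rank of the members went both ways. The median difference in percentile, Taf4-inactivated minus control, was 0.0935 points for members and -2.78 points for the 14022 coding genes with peaks in both lists, with 27 members ranked higher in each list. A rise of at least 25 points was found for 4 of 54 members (7.41%) against 5.93% of coding genes, and a fall of at least 25 points for 0 of 54 against 9.07%. Only a gene at percentile 75 or lower in control can rise by 25 points, and 7 of the 54 members were that low, against 30.2% of coding genes. Of these 7 members 4 rose (57.1%), against 19.6% of the coding genes that low in control. Among the 7, Hist3h2bb-ps and Hist3h2a shared a peak. Among the 4, Hist1h4i took the peak of a neighbour, 959 bp from its start, and the Hist3h2ba peak covered its start in neither list. With only peaks that cover a start, 2 of 43 members rose (4.65%), against 5.50% of coding genes. When fold was ranked among the start site peaks of coding genes alone, 12 members (22.2%) rose and 3 (5.56%) fell by at least 25 points, against 6.92% and 8.21% of coding genes, and the median difference was 6.27 points for members and -1.89 points for coding genes. When peak width was ranked in place of fold, the medians were 5.16 and 1.37 points. The size of the group's difference therefore depended on the ranking.

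**Figure D2:**
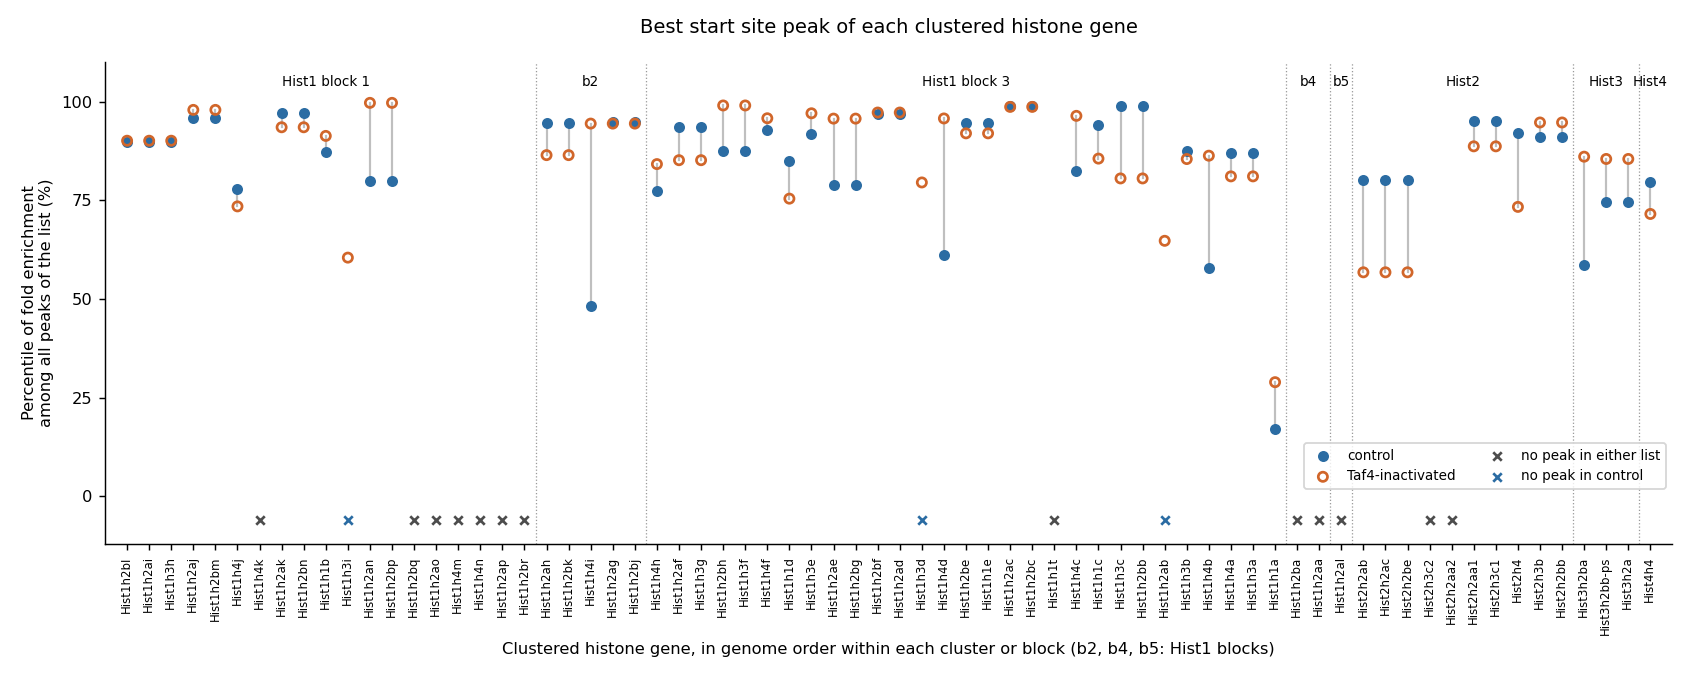
Percentile of fold enrichment of the best start site peak (vertical axis, 0 to 100 within each list) for each of the 70 clustered histone genes in genome order, with filled points for control, open points for Taf4-inactivated enteroids and crosses below 0 for genes without a peak. Most genes lie above 75 in both lists, Hist1h1a lies lowest in both at 17.0 and 28.9, and the runs of crosses are the 6 genes at the end of Hist1 block 1, the genes of Hist1 blocks 4 and 5, and Hist2h3c2 with Hist2h2aa2 in Hist2.

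Members shared peaks. The 54 members with control peaks stood on 35 distinct peaks, and the 57 members of the Taf4-inactivated list on 37. In each list 18 of these peaks reached the starts of several members, at most 3. All 35 control peaks overlapped a peak of the other list, as did 34 of the 37 Taf4-inactivated peaks. No such overlap is given for the peaks of other genes, so these counts have no background beside them. The median width of the distinct peaks was 676 bp in both lists, against 970 bp (control) and 917 bp (Taf4-inactivated) for the peaks at coding gene starts. Gene by gene, the best peak was wider in the Taf4-inactivated list for 36 of the 54 members with peaks in both (66.7%), against 44.3% of coding genes, with medians over these members of 690 bp (control) and 1040 bp (Taf4-inactivated). Distinct peaks that covered a start had median widths of 668 and 1000 bp, and those with −log10 q of at least 5 had 559 and 960 bp.

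The widest shared peak was in Hist2. It measured 2183 bp in control (chr3:96023233-96025415) and 2081 bp in Taf4-inactivated enteroids (chr3:96023521-96025601) and covered the starts of Hist2h2ab, Hist2h2ac and Hist2h2be. A peak of 1469 bp in the control list (chr13:21807998-21809466) and 1618 bp in the Taf4-inactivated list reached Hist1h2bl, Hist1h2ai and Hist1h3h, and covered the start of Hist1h3h in the Taf4-inactivated list only, where control cover stopped 31 bp short. A peak reaching Hist1h4i, Hist1h2ag and Hist1h2bj was found in the Taf4-inactivated list (1039 bp), against a peak of 484 bp at Hist1h2ag and Hist1h2bj in control.

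The Hist1 cluster fell into 5 blocks parted by over 100 kb. Block 1 (chr13:21807632-21929399, 19 members) had peaks in both lists at 11 members, block 2 (chr13:22126982-22135545) at all 5, and block 3 (chr13:23622919-23856283) at 26 of 29. Block 4, which is the pair Hist1h2ba and Hist1h2aa, and block 5, which is Hist1h2al alone, had none. In Hist2 (chr3:96023839-96082924) 8 of 10 members had peaks in both lists, in Hist3 (chr11:58762413-58770176) all 3, and Hist4h4 did as well. Within the blocks, block 3 held 1 peak away from any member start in the control list and 4 in the Taf4-inactivated list, and Hist2 held 4 and 1. Block 3 also holds 2 other coding genes. Gm17658 had start site peaks in both lists and Hfe in the Taf4-inactivated list only.

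The H2A and H2B genes, whose products form the H2A-H2B dimer, were mostly arranged head to head. There were 14 such divergent pairs, each of 1 H2A and 1 H2B gene, with annotated starts -87 to 306 bp apart (median 200.5 bp, negative where the genes overlap). In 11 pairs a peak overlapped the interval in both lists, and a single peak covered both starts in 10 of them in control and in 11 in Taf4-inactivated enteroids. The exception in control was Hist1h2an and Hist1h2bp, where the peak of 330 bp stopped 35 bp from the Hist1h2an start.

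Pair members with peaks in both lists (22 of 28) had a median percentile of 94.5 in control and 94.4 after Taf4 inactivation. The 24 such H1, H3 and H4 members had medians of 87.4 and 85.9, and the 8 such H2A and H2B members outside pairs 92.3 and 87.3. The values of the paired genes are not independent, since both genes read the same peak. Hist1h3h and Hist2h2ab in the other groups also read the peak of a pair, as did Hist1h4i in the Taf4-inactivated list. The medians of the groups are therefore not of separate peaks.

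Hist1h2ac and Hist1h2bc, whose interval is printed above, had the highest fold of any pair in control. The fold was 3.45 in control (percentile 98.8) and 4.88 in Taf4-inactivated enteroids (98.6), in peaks of 473 and 533 bp. Hist1h2an and Hist1h2bp had the highest fold of any member in the Taf4-inactivated list, 5.55 (percentile 99.7), against 2.30 in control (79.8), a rise of 19.9 points. Hist1h2ae and Hist1h2bg moved the same way, from 2.28 (78.9) to 4.25 (95.7). Hist1h2ah and Hist1h2bk fell by 8.10 points, from a fold of 2.85 (94.5) to 3.45 (86.4).

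**Figure D3:**
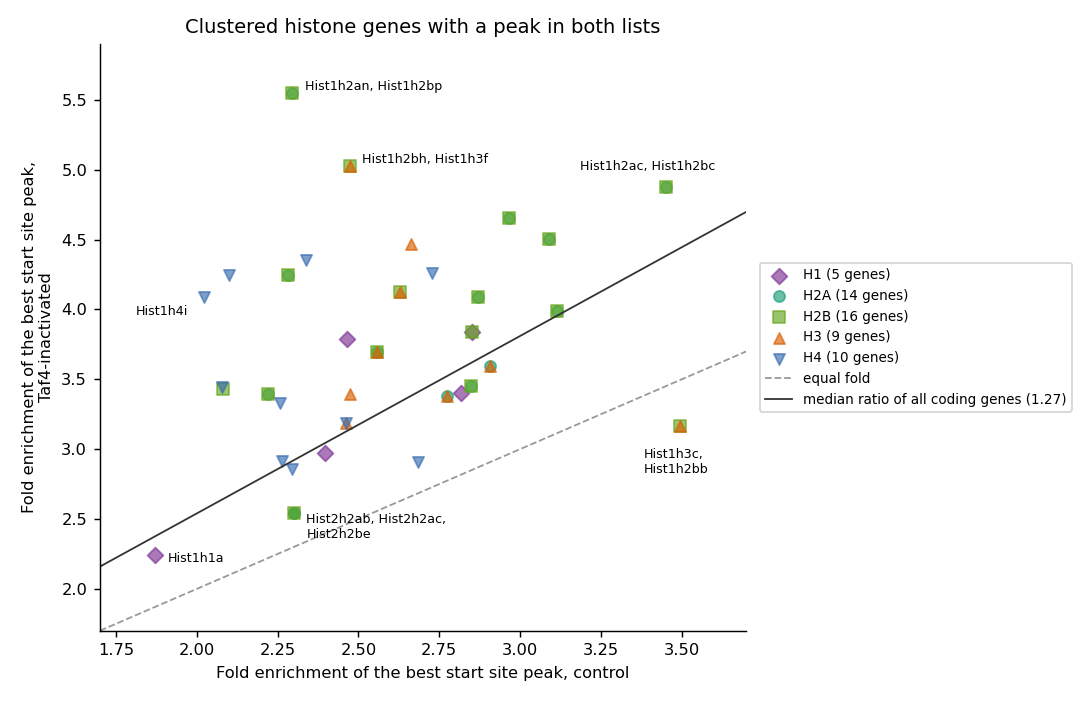
Fold enrichment of the best start site peak in control (horizontal axis) and Taf4-inactivated enteroids (vertical axis) for the 54 members with peaks in both lists, by histone class, with a dashed line at equal fold and a solid line at the median ratio of all coding genes (1.27). Genes that share a peak fall on the same point, and Hist1h3c with Hist1h2bb are the only members below the dashed line.

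H4 was the class with the lowest ranks in control and held 3 of the 4 rises of at least 25 points. The median percentile of its 10 members with peaks in both lists was 78.7 in control and 85.2 in Taf4-inactivated enteroids. Its highest fold in control was at Hist1h4f, 2.73 (92.9), and its lowest at Hist1h4i, 2.02 (48.3). Hist1h4d ranked at 61.1 in control and at 95.7, with a fold of 4.25, in Taf4-inactivated enteroids, a rise of 34.6 points. Hist1h4b went from 2.08 (57.7) to 3.44 (86.3), a rise of 28.6 points. The peaks of both were narrower in the Taf4-inactivated list. They measured 584 bp in control and 419 bp there at Hist1h4d, and 659 and 320 bp at Hist1h4b. Among the 10 H4 members with peaks in both lists, the best peak was wider in the Taf4-inactivated list for 6 and narrower for 4. The part of peak width in these rises was not tested.

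Hist1h4i showed the largest difference of any member, 46.1 points, and it rested on a neighbour. The best peak within 1 kb in the Taf4-inactivated list was the Hist1h2ag and Hist1h2bj peak, which lay 959 bp from the Hist1h4i start and had a fold of 4.09 (94.4). The peak that covered the Hist1h4i start itself was narrow in both lists, 216 bp at percentile 48.3 in control and 202 bp at percentile 46.9 after Taf4 inactivation. Only the peaks that cover a start were used in an alternative with distance 0 bp, under which the number of rises was 2 and not 4.

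The fourth rise was Hist3h2ba, 27.5 points, from a fold of 2.08 (58.5) to 3.43 (86.0). Its peak ended 13 bp before the start in control and lay 720 bp before it in Taf4-inactivated enteroids, and it covered the start in neither list. The divergent Hist3h2bb-ps and Hist3h2a shared a peak that went from 2.22 (74.5) to 3.40 (85.5), so all 3 Hist3 members ranked higher in the Taf4-inactivated list. Hist4h4 went from 2.29 (79.6) to 2.86 (71.5).

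Lower ranks after Taf4 inactivation were led by Hist2. Hist2h2ab, Hist2h2ac and Hist2h2be, on their shared peak, went from a fold of 2.30 (80.1) to 2.54 (56.7), a difference of -23.3 points. Hist2h4 went from 2.68 (92.2) to 2.91 (73.3). Hist2h2aa1 and Hist2h3c1 went from 2.91 (95.1) to 3.59 (88.7), on a peak that stopped 192 bp (control) and 139 bp (Taf4-inactivated) before the Hist2h2aa1 start. Hist2h3b and Hist2h2bb rose from 2.63 (91.1) to 4.12 (94.7), so that 6 of the 8 Hist2 members with peaks ranked lower and 2 higher.

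Hist1h3c and Hist1h2bb had the highest fold of any member in control, 3.49 (99.0), and 3.17 (80.5) in Taf4-inactivated enteroids, and were the only members whose fold was lower there. The control peak (559 bp) covered the Hist1h2bb start and lay 754 bp before the Hist1h3c start, while the Taf4-inactivated peak (1354 bp) covered both.

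H3 genes, which encode the core histone most studied for its modified tail, had 9 of 12 members with peaks in both lists. Besides Hist1h3c, the lowest fold in control was at Hist1h3a, 2.46 (87.0), on a peak shared with Hist1h4a that became 3.19 (81.0). Hist1h3f with Hist1h2bh showed the largest rise of the class, from 2.47 (87.5) to 5.02 (99.0). Starts were covered by a peak for 5 of 12 H3 genes in control (41.7%) and for 10 in Taf4-inactivated enteroids (83.3%), while coding genes had 60.9% and 59.1%. Over all members the start itself was covered for 43 in control (61.4%, coding genes 60.9%) and for 52 in Taf4-inactivated enteroids (74.3%, coding genes 59.1%). The share of members was thus near that of coding genes in control and above it in the Taf4-inactivated list.

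H1 genes encode linker histones, and 5 of 6 had peaks in both lists. Hist1h1e had the highest H1 fold in control, 2.85 (94.6), and 3.84 (91.9) in Taf4-inactivated enteroids, on a peak it shared with Hist1h2be. The annotated 5' end of Hist1h2be lies 35168 bp from its start codon, so this peak is far from the Hist1h2be coding sequence. It was the only start site peak of Hist1h2be in each list, and Hist1h2be counts as a member with peaks by this annotation alone. Hist1h1c had 2.82 (94.1) and 3.40 (85.5), Hist1h1d 2.40 (84.9) and 2.98 (75.4), and Hist1h1b 2.47 (87.3) and 3.79 (91.3). The Hist1h1b peak did not cover the start, and began 128 bp downstream of it in control and 881 bp downstream in Taf4-inactivated enteroids. Hist1h1a had the lowest fold of any member in both lists, 1.87 (17.0) and 2.24 (28.9), with −log10 q of 1.54 and 2.72.

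Peaks in the Taf4-inactivated list only stood at Hist1h3i, Hist1h3d and Hist1h2ab. All were narrow, 200, 285 and 265 bp, and covered the start. Hist1h3d had a fold of 3.12 (percentile 79.5, −log10 q 5.83), Hist1h2ab 2.69 (64.7, 3.26) and Hist1h3i 2.60 (60.5, 3.61). They ranked below the median member with a peak, and a peak present in 1 list and absent in the other means only that it did not reach the caller's limit there.

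The 200 bases before these 3 starts are shown in the direction of each gene, with the same motifs in capitals, at chr13:21875267-21875466 for Hist1h3i (minus strand), chr13:23667432-23667631 for Hist1h3d and chr13:23842757-23842956 for Hist1h2ab.

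Hist1h3i: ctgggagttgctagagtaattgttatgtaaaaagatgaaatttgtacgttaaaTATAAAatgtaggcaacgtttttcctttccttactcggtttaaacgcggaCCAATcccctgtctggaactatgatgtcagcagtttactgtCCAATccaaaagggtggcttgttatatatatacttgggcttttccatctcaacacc
Hist1h3d: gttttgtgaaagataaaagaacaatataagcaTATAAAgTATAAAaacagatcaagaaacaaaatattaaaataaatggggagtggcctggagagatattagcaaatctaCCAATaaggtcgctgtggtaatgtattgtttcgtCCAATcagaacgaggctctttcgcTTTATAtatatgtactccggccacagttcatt
Hist1h2ab: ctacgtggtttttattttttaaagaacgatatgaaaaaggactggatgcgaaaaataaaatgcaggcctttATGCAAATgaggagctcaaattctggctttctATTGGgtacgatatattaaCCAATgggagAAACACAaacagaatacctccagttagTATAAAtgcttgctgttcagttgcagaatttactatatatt

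Each held TATAAA, counted at any place and on either strand, and at least 2 CCAAT boxes. Among the 54 members with peaks in both lists 24 held a TATA box (44.4%), and among the 13 without peaks 6 did (46.2%). Hist1h3i, Hist1h3d and Hist1h2ab had median G+C of 32.8%, the members with peaks in both lists 43.8% and those without peaks 48%.

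The 13 members without a peak in either list were Hist1h4k, Hist1h2bq, Hist1h2ao, Hist1h4m, Hist1h4n, Hist1h2ap, Hist1h2br, Hist1h1t, Hist1h2ba, Hist1h2aa, Hist1h2al, Hist2h3c2 and Hist2h2aa2. They include the genes known for expression in testis (Hist1h1t, Hist1h2ba, Hist1h2aa). They also include genes whose sequence exists in more than 1 place. The reads had been kept only where they mapped to a single place, so a read that falls wholly within a duplicated stretch was lost. The share of 50-base windows that occur at a single place in mm9 was therefore computed for each member.

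Over 1 kb on both sides of the start, the median share of single-place windows was 79.1% for members and 100% for coding genes, and in the gene body it was 57.8% for members, with 28 of 70 members under 50%. In the 250 bases before the start the median was 100%. Around the start, 10 members had under 50%, of which 8 had no peak and 2 had peaks in both lists. Of the other 60 members 52 had peaks in both lists, 3 in the Taf4-inactivated list only and 5 in neither.

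The lowest shares belonged to an inverted duplication at the end of Hist1 block 1. Hist1h2bq, Hist1h2ao, Hist1h2ap and Hist1h2br had 0% single-place windows around the start, and Hist1h4m and Hist1h4n 6.85% and 7.85%. Of the body windows of Hist1h2bq 98.7% recurred in Hist1h2br, of Hist1h2ao 90.6% in Hist1h2ap, and of Hist1h4m 85.8% in Hist1h4n. The 100 bases before the starts of Hist1h4m (chr13:21903515-21903614, plus strand) and Hist1h4n (chr13:21924066-21924165, minus strand) differed at 0 bases, as did those of Hist1h2ao (chr13:21902136-21902235, plus strand) and Hist1h2ap (chr13:21925445-21925544, minus strand). They are shown in lower case throughout, since no base differed.

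Hist1h4m and Hist1h4n: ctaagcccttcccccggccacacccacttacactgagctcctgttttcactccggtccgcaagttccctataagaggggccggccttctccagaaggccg
Hist1h2ao and Hist1h2ap: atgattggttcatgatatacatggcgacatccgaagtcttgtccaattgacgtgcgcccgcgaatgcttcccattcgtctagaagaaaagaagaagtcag

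Uniquely mapped reads can scarcely measure these 6 genes, and the lack of a peak there does not show that they were closed.

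Another duplication is in Hist2. Hist2h3c2 (21.9% single-place windows around the start) and Hist2h2aa2 (45.1%) had no peak, while their copies Hist2h3c1 (41.6%) and Hist2h2aa1 (42.4%) had peaks in both lists. The peak beside Hist2h2aa1 and Hist2h3c1 measured 312 bp in control (chr3:96048958-96049269) and 279 bp in Taf4-inactivated enteroids (chr3:96049044-96049322), and 81.1% and 59.9% of its 50-base windows occurred at a single place. Which copy was open cannot be told apart from which copy has sequence of its own.

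Not all 13 lay in copied sequence. Hist1h1t had 100% single-place windows around its start, Hist1h2ba and Hist1h2aa 93.1%, Hist1h4k 86.4% and Hist1h2al 67.3%, and none had a peak. Within 5 kb, peaks were found in both lists for Hist1h4k and Hist1h1t, in control only for Hist1h2al, and in neither list for Hist1h2ba and Hist1h2aa.

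**Figure D4:**
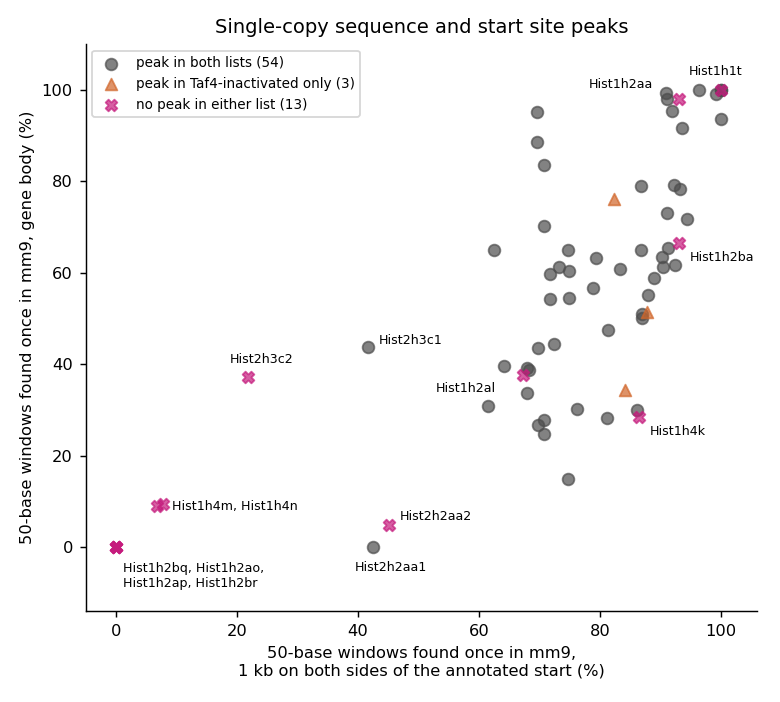
Share of 50-base windows that occur at a single place in mm9, in percent, over 1 kb on both sides of the start (horizontal axis) and in the gene body (vertical axis), for each of the 70 members, with symbols for the presence of start site peaks. Of the 10 members left of 50% on the horizontal axis 8 have no peak, and 5 of the 60 to the right have none.

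Peak cover and single-place sequence were compared along the gene. In control, 64.3% of members were covered by a peak 50 bp before the start and 31.4% at 200 bp after it, while coding genes had 52.5% and 55.0%. In Taf4-inactivated enteroids the members had 74.3% and 35.7%, and coding genes 51.9% and 52.4%. The mean share of single-place windows in members was 87.2% in the 50 bases before the start and 28.3% from 200 to 249 bases after it, against 93.5% and 91.4% in coding genes. At other distances these measures went apart. The mean share of single-place windows in members was back at 82.7% from 500 to 549 bases after the start, while control cover was 30% at 500 bp and 15.7% at 1000 bp, and the share was 63.2% in the 50-base bin that begins 550 bases before the start with no dip in cover there. The part of the copied coding sequence in the place of the peaks was not tested.

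**Figure D5:**
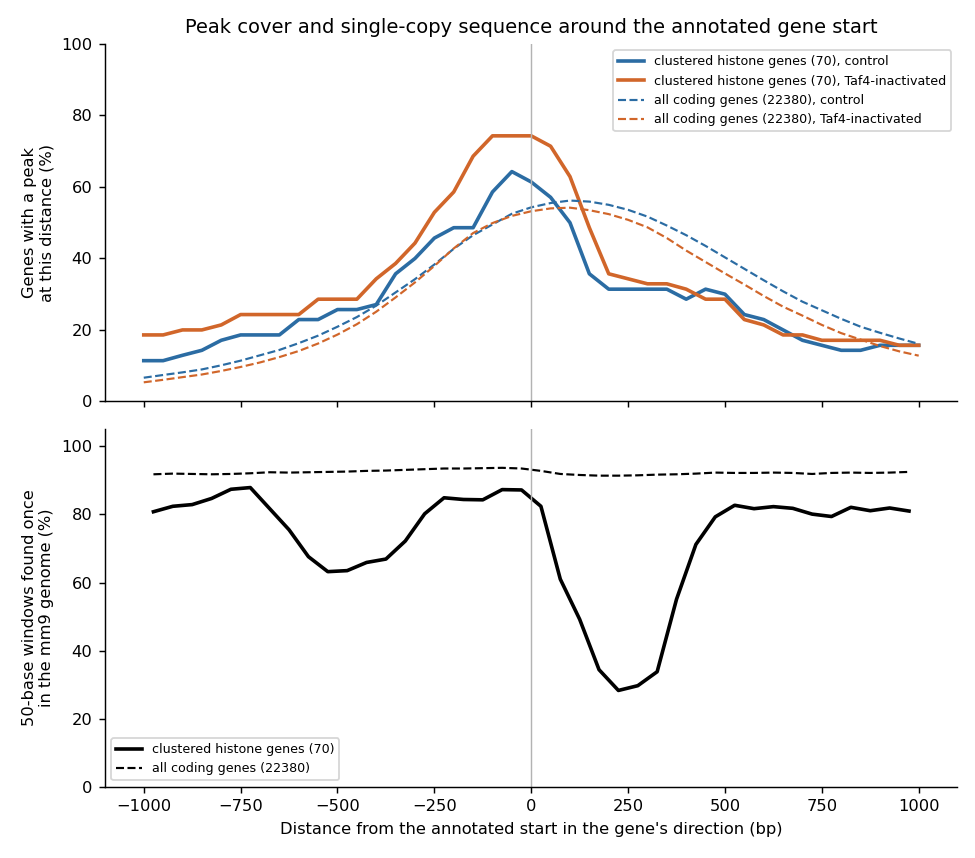
Upper panel, share of genes covered by a peak (percent) against distance from the annotated start in the direction of the gene, for the 70 members (solid lines) and all coding genes (dashed lines) in control and Taf4-inactivated enteroids. Lower panel, mean share of 50-base windows that occur at a single place in mm9 (percent) at the same distances, which in members falls to 28.3% from 200 to 249 bp, where peak cover falls to 31.4% in control and 35.7% in Taf4-inactivated enteroids.

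Histone genes outside the clusters encode histone variants, many of which are replacement variants made through the cell cycle. Of 12 such genes 11 had start site peaks in both lists, and H2afb1 had none. H2afv, an H2A.Z gene, ranked 99.7 in control and 99.9 in Taf4-inactivated enteroids, H3f3a, a replacement H3 gene, 94.6 and 89.3, and Cenpa, the centromeric H3, 81.9 and 91.9. The largest differences were falls, at H2afy2 from 90.5 to 36.4 and at H1fx from 77.2 to 36.3, each larger than that of any clustered gene that fell.

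The regulators and processing factors of the clustered genes had peaks in both lists for 17 of 17. Npat, the co-activator of clustered histone genes, ranked 99.3 in control and 97.9 in Taf4-inactivated enteroids, Hinfp, which binds H4 promoters, 99.7 and 98.5, and Casp8ap2, a part of the histone locus body, 99.8 and 99.7. Slbp, which binds the stem-loops printed above, ranked 95.8 and 95.4, and Pou2f1, which binds the octamer, 95.6 and 80.4. Histone chaperones had peaks in both lists for 15 of 15, from Mcm2 at 21.6 and 40.3 to Nap1l1 at 99.7 and 92.4.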

How the data were processed

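Reads of the 1 control and 1 Taf4-inactivated ATAC-seq library were mapped by the authors to mm9 with Bowtie 1.0.0, keeping reads with a single best place, and broad peaks were called with MACS2 2.1.1 in each library separately, with no shift model, reads shifted by -100 bp and extended to 200 bp (versions per the submitters' processing notes; read length is not given in the sources used here). Each library has 1 deposited broad peak list with a display score, a fold enrichment and −log10 p and −log10 q values per peak; the score was not used. Total reads are not given, so depth was compared only by the background level that fold and p imply in the narrowest 10% of peaks (their 5th percentile).

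Genes, transcripts and starts came from GENCODE M1. A gene's best peak was the one of highest deposited fold within 1 kb of any start, and its percentile was the rank of that fold in its list. Rank differences of at least 25 points were counted. Single-place windows were counted over the whole mm9 reference, both strands, exact match. Sequences were read from the same reference. Python 3.11.15, numpy 2.4.6, pandas 2.3.3, scipy 1.17.1, numba 0.67.0 and matplotlib 3.10.9 were used, and peak assignment, window counting and the depth estimate were tested on simulated data.

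The members, gene lists and rules were chosen with earlier results of these data known. Genes named individually were those with a peak in 1 list or neither, the highest and lowest control fold of each class, the 3 largest rank differences in each direction, the genes of the peaks reaching most members, every Hist2, Hist3 and Hist4 member, and named variants, regulators and chaperones; pairs named beyond these (Hist1h2an with Hist1h2bp, Hist1h2bh with Hist1h3f, Hist1h2ae with Hist1h2bg, Hist1h2ah with Hist1h2bk, and the remaining H1 genes) were chosen after their values were seen. The motifs, the stem-loop and the printed sequences were also chosen after the peaks had been seen. Alternatives covered distance, peak threshold, start choice, ranked value, joining of peaks and window length.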

Additional observations from a re-analysis of the deposited data

How the results depend on the processing

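No paired analysis was possible because each genotype has 1 library. Of 86 alternative values for 16 results, 64 stayed close to the reported value and 22 moved. Close meant within 1.5 times for counts and within the 95% interval of the median otherwise. A reversal could be called only for the median percentile difference. Its interval, -3.52 to 2.9 points, held 0, so no reversal could be called. The median was 0.0935 points as reported, -0.39 at 5 kb and -0.197 for coding members alone. The interval counted members that share a peak separately. With −log10 q of at least 5, members with a control peak fell to 26 and members with peaks in both lists to 26. Distinct control peaks fell to 15 and control peaks reaching several members to 11. Coding gene shares are not given for these counts. For genes with peaks in both lists, the cut lay above the control median of members (4.87) and below that of coding genes (5.61). At this cut Taf4-inactivated-only members numbered 24 (34.3%, coding genes 12.4%). With −log10 q of at least 2 they numbered 6 (8.57%, coding genes 4.56%). Taf4-inactivated-only members numbered 9 at distance 0 bp (12.9%, coding genes 3.49%) and 0 at 5 kb (coding genes 2.55%). Control-only members numbered 2 at 500 bp (Hist3h2ba, Hist1h1b) and 2 at 5 kb (Hist1h2al, Hist2h3c2), each 2.86% against 5.62% and 5.28% of coding genes. At 5 kb, 31 control and 33 Taf4-inactivated peaks reached several members. Rises of at least 25 points numbered 2 at 0 bp (4.65%, coding genes 5.50%), 1 at 5 kb (1.67%, 6.45%), 7 of 54 when width was ranked (coding genes 6.72%) and 12 when fold was ranked among coding gene start peaks, falls numbered 2 and 3 in the last 2 settings, and the median difference there was 5.16 and 6.27 points. With 100-base windows the median single-place share was 87.7% and 17 members had under 50% in the gene body. The cause of these changes was not tested. Depth is known only as a ratio, and peaks near the caller's limit may be missing from either list.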
